A study of Mus musculus with 20 samples.

Results

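The nuclear receptor genes of mouse granulosa cells (GCs) are described here, ranked by their level and compared between the Dummerstorf high fertility line FL1 and the unselected line ctrl. The members were 47 genes of the superfamily, matched by gene symbol to the Ensembl identifiers of the count files, and all 47 were found among the 55487 gene identifiers. GCs of 20 female mice were measured, in 4 groups of 5 mice: ctrl in estrus, ctrl in diestrus, FL1 in estrus and FL1 in diestrus. The lines share their founders, and while ctrl is an unselected reference, FL1 was selected over many generations for litter size and, for most of them, litter weight. The mice were young adults of a narrow age range, the stage was read from vaginal smears, and no treatment is named for any group. Mural GCs were collected per mouse from several of its biggest follicles, leaving the oocyte with its cumulus cells behind. Each group stands for a selected or unselected line as a whole, and differences between lines include all changes that breeding brought about.

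Nuclear receptors are transcription factors that sit on short DNA elements and, in many members, change their activity when a fat-soluble ligand such as a steroid, thyroid hormone, retinoid or fatty acid binds. Several members have no known ligand and act by their amount, and a few lack a DNA-binding domain and repress other receptors. In the follicle the estrogen receptor Esr2, the orphan receptors Nr5a1 and Nr5a2 and the progesterone receptor are known for their roles in GC growth, steroid synthesis and ovulation.

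The libraries held 5446576 to 8257041 counts on genes, of which 11142 to 23691 per mouse fell on the 47 members. The members are given as CPM, read counts scaled to a common library size by the trimmed mean of M values (TMM), and since a 3′ kit counts about the same stretch of each transcript, CPM were also compared between genes. The kit gives no molecular identifiers, so copies made by PCR are counted too and counting error is only part of the error. All 9 GC markers were present in every group, with summed levels of 4652 to 14532 CPM. Oocyte markers summed to 50.4 to 501.0 CPM although the oocyte had been left out, and stroma markers to 134.8 to 1718 CPM. In such bulk samples fewer cells of a type and less RNA per cell cannot be told apart.

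The regions before the start of the genes called in a comparison are shown here, since the hexamer AGGTCA is the element that many receptors of the superfamily read. The letters come from RefSeq on the plus strand of GRCm38.p6, 250 bases before the start or fewer where an annotated exon begins sooner, and capitals mark AGGTCA or its reverse complement.

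Nr0b1, chrX:86191525-86191763: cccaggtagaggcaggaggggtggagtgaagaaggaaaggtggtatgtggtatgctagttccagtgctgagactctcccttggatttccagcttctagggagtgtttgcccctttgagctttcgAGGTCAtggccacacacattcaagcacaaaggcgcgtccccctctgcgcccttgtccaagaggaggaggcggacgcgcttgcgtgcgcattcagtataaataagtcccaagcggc

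Pparg, the last of 3 starts, chr6:115421816-115422065: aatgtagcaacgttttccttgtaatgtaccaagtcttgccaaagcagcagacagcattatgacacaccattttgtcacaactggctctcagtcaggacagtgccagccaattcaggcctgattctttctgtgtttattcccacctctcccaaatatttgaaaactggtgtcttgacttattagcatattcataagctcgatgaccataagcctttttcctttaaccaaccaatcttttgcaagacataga

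Rora, chr9:68653536-68653785: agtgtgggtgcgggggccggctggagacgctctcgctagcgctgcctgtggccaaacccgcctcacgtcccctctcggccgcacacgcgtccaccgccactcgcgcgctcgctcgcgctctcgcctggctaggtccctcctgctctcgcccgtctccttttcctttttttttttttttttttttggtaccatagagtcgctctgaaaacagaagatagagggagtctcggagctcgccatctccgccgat

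Nr0b1 carried AGGTCA 126 bases before its RefSeq start, which lies past the annotated exon start at which the bases shown end. The window before Rora and the one shown for Pparg held no copy, while the other Pparg starts had a copy 28 and 9 bases upstream, within exons of other Pparg transcripts. AGGTCA was present in 14.0% of all 32851 promoter windows and in 17.2% of the 64 windows of 43 members, searched on both strands over the 250 upstream bases. The palindrome CACGTG, which clock factors read, was present in 6.02% of all windows and in 7.81% of those of the members. RefSeq windows for Nr5a1, Hnf4g, Nr3c1 and Thra were not used here. A match in these windows is a run of letters, and binding was not measured.

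The level of Nr5a2 was far above that of any other member. Nr5a2, also called liver receptor homolog, is required in GCs for ovulation and luteinization. It reached 1304.5 ± 267.6 CPM (SD over 20 mice), which was 49.9% of the mean level of all members together, and its lowest mouse, at 822.9 CPM, was above the highest mouse of every other member. The next member, Esr2, was at 167.5 ± 63.7 CPM, 7.79 times lower. Only the step from Nr5a2 to Esr2 left no overlap between neighbours, and from Esr2 downwards each member overlapped the next in range.

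Esr2, the main estrogen receptor of GCs, was followed by Nr2f2, an orphan receptor of the COUP-TF group that is strong in theca and stroma, with 144.0 ± 49.4 CPM. Next came the thyroid hormone receptor Thra with 136.8 ± 33.0 CPM, the fatty acid receptor Pparg with 114.7 ± 52.9 CPM and the steroidogenic factor Nr5a1 with 95.6 ± 33.0 CPM. Esr2 exceeded Nr2f2 in 13 of 20 mice, and Nr2f2 exceeded Thra in 9 of 20, so the order of these neighbours did not stand out from the spread between mice. Rora, an orphan receptor of the circadian loop, was at 91.5 ± 114.6 CPM, and its SD above its mean came from a single FL1 mouse in estrus at 551.6 CPM. The testicular receptor Nr2c2, the circadian repressor Nr1d2 and the COUP-TF relative Nr2f6 closed the 10 highest members with 74.1 ± 24.9, 56.1 ± 25.0 and 51.7 ± 24.6 CPM. By group means Esr2 ranked 5 in FL1 in estrus and 2 in the other groups. Rora ranked 2 in FL1 in estrus, 8 in FL1 in diestrus and 11 in both ctrl groups.

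In all, 5 members lay at 100 CPM or more on average, 20 between 10 and 100, and 22 under 10 CPM. Reads were present in all 20 mice for 26 members and in some mice for 17. The remaining 4 members, the bile acid receptor relative Nr1h5, the xenobiotic receptor Nr1i3, Hnf4g and the retinoid X receptor Rxrg, had no read in any mouse. Rarb, Hnf4a and Nr1i2 had reads in 2 mice each, with at most 5, 10 and 8 counts. The progesterone receptor Pgr, which is switched on in GCs for a short time before ovulation, had reads in 10 of 20 mice and did not exceed 5.62 CPM. A filter on low counts passed 37 members in at least 1 comparison and 28 in all 7 comparisons, so the counts of called members below never cover the whole superfamily.

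**Figure D1:**
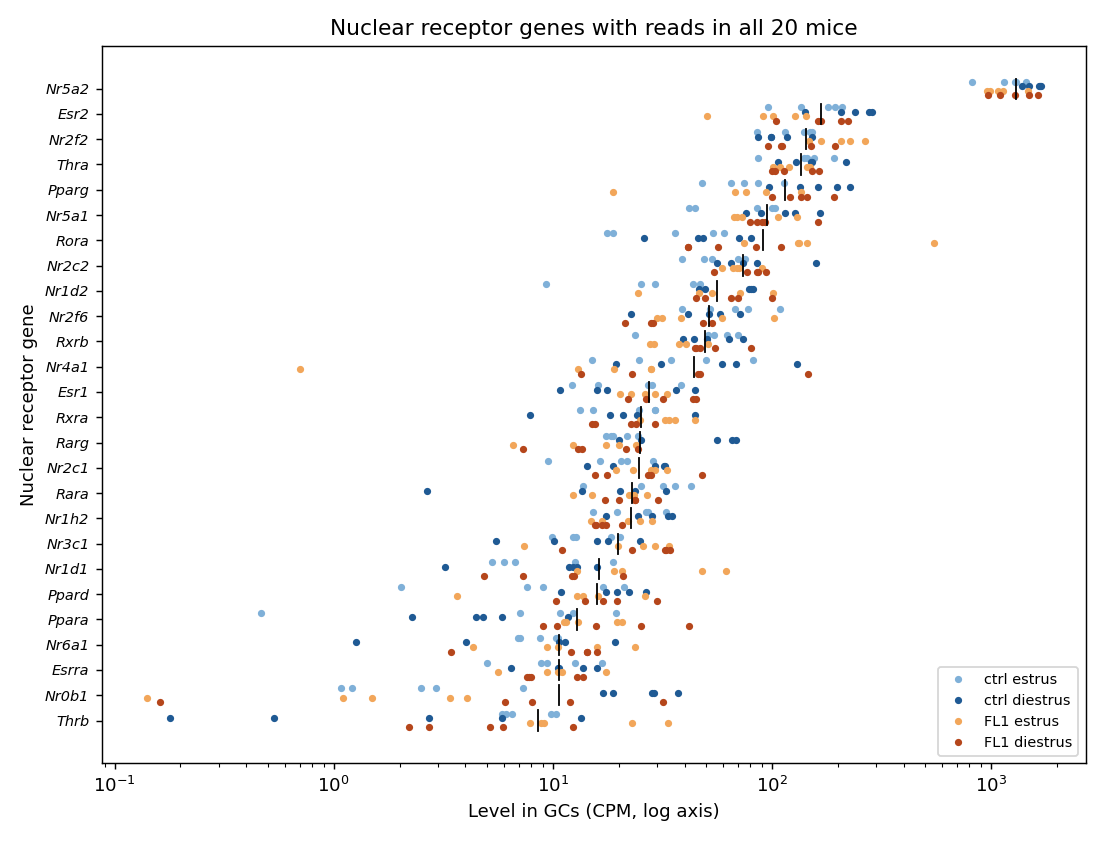
Level of the 26 nuclear receptor genes with reads in all 20 mice, on a log axis in CPM, with a point for each mouse coloured by group and a black bar at the mean over 20 mice. Nr5a2, between 822.9 and 1693 CPM, stands apart, and from Esr2 downwards the members overlap.

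Several members come as pairs of close relatives, and within each mouse the same partner prevailed in most pairs. Esr2 exceeded Esr1, the estrogen receptor of theca and stroma, in 20 of 20 mice, by a median of 5.44 times. The ratio was 1.91 to 6.29 in FL1 in estrus and 4.65 to 17.1 in ctrl in estrus, and these ranges overlapped. Nr5a2 exceeded Nr5a1 in every mouse, by 6.78 to 25.9 times. Nr2c2 exceeded Nr2c1 in all 20 mice, with a median ratio of 3.03.

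The retinoid X receptors, partners of many other members, differed less within a mouse, and Rxrb exceeded Rxra in 17 of 20 mice. The 3 exceptions were 1 ctrl and 2 FL1 mice, all in estrus. Of the pair of circadian repressors, Nr1d2 exceeded Nr1d1 in 19 of 20 mice, with medians of 5.72 to 6.27 in diestrus and 1.91 to 2.33 in estrus. The oxysterol receptor Nr1h2 exceeded Nr1h3 in all 20 mice, of which 5 had no Nr1h3 read.

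**Figure D2:**
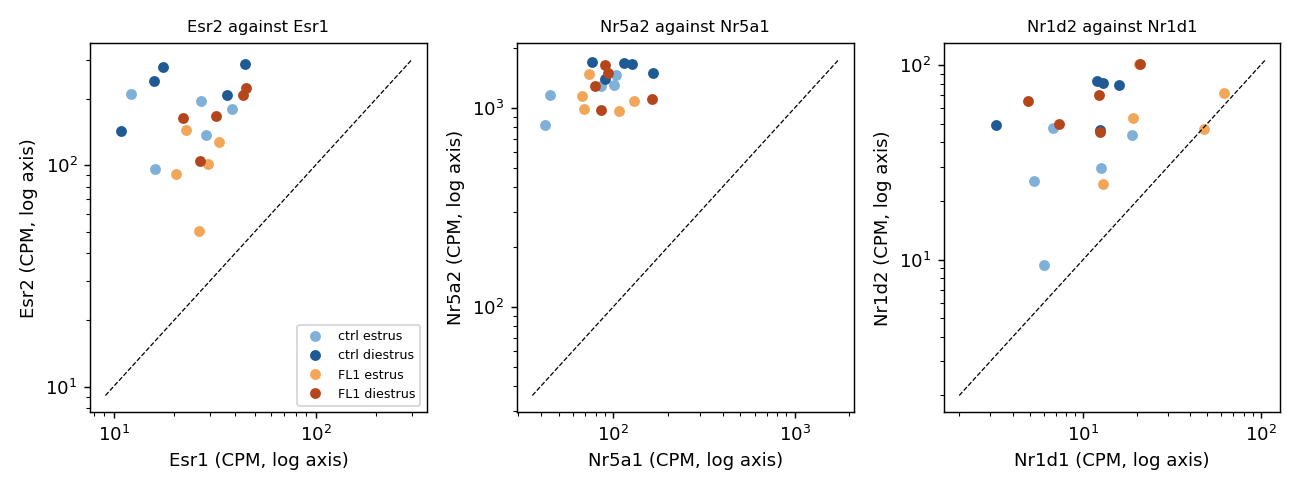
Level of paired receptors in each mouse, in CPM on log axes, with the dashed line marking equal levels. All 20 mice lie above the line for Esr2 against Esr1 and for Nr5a2 against Nr5a1, and 19 of 20 for Nr1d2 against Nr1d1.

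Between the lines in estrus, the orphan receptor Rora was stronger expressed in FL1, and no member was called weaker expressed. Rora, on chromosome 9 at 68653786 to 69388246 (ENSMUSG00000032238), drives the clock gene Arntl and lipid genes. It was at 144.9, 551.6, 74.7, 132.1 and 133.1 CPM in the 5 FL1 mice and at 17.6, 18.9, 53.8, 36.2 and 60.6 CPM in the ctrl mice. The lowest FL1 mouse was above the highest ctrl mouse, and a single FL1 mouse, replicate 2, was far above the others. Of all genes tested 3.55% did not overlap between the lines, in either direction. The log2 fold change was 2.47 (SE 0.48, adjusted p = 0.0145 by edgeR's quasi-likelihood test). Without that mouse it was 1.69 (SE 0.34, adjusted p = 0.0308). The call was lost with robust estimation (adjusted p = 0.122).

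Rora was the sole member called by edgeR of 32 tested in estrus, where 0.769% of 13007 genes were called. DESeq2 called Nr1d1 and Vdr besides Rora. At an unadjusted p under 0.05 there were 4 members higher and 1 lower in FL1, beside 5.47% and 5.22% of all genes tested. The median log2 fold change of the 32 members was 0.33, and that of all genes was 0.01. Besides Rora, the lowest p among the higher members belonged to Nr1d1, which represses the targets that Rora activates. Nr1d1 had 19.1, 62.2, 48.2, 20.6 and 12.9 CPM in FL1 and 5.97, 5.27, 6.75, 18.8 and 12.6 CPM in ctrl, with overlap between the lines. Its log2 fold change was 1.72 (SE 0.49, adjusted p = 0.126 by edgeR), and 2 of 7 fits with other settings called it. Exons of Nr1d1 and Thra overlap on opposite strands and the strand setting of the counting is not given in the sources used here, so reads from this overlap may belong to either gene. Exons of Rora, Nr2f2, Nr2c2 and Nr2f6 likewise overlap exons of other genes on the opposite strand, and the same limit holds for them.

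On the lower side stood Esr2 and the immediate early receptor Nr4a1, neither of which passed the test in estrus. Esr2 was at 101.7, 50.4, 127.5, 144.0 and 91.1 CPM in FL1 and at 209.5, 96.6, 195.0, 180.0 and 136.5 CPM in ctrl, a log2 difference of -0.67 (SE 0.27, adjusted p = 0.336 by edgeR). The FL1 range ended below 3 of the 5 ctrl mice. Nr4a1, which answers to the LH surge within a short time, was at 17.9 ± 11.5 CPM in FL1 and 41.3 ± 26.2 CPM in ctrl, a log2 difference of -1.21 (SE 0.60, adjusted p = 0.483 by edgeR).

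Luteal cell markers moved with the line in estrus in the same mice. All 5 luteal markers were higher in FL1, 3 of them passed the test (Akr1c18, Lhcgr and Prlr), and their summed level was 1468 to 4154 CPM in FL1 and 210.9 to 478.6 CPM in ctrl. Macrophage markers summed to 37.1 to 102.1 CPM in FL1 and 16.8 to 42.2 CPM in ctrl, and none of 5 tested was called. Surface epithelium markers summed to 24.5 to 72.7 CPM in FL1 and 3.21 to 28.0 CPM in ctrl, with all 5 higher and none called. The part of these cell types in the level of Rora was not tested. The FL1 mouse with the highest Rora had a luteal sum of 3214 CPM, which was the median of its group. Its GC (4652 CPM), stroma (851.2 CPM), endothelial (23.3 CPM) and macrophage (37.1 CPM) sums were the lowest of its group. So were its smooth muscle, surface epithelium and erythroid sums, while its oocyte sum (467.6 CPM) was the highest. The part of these sums in its Rora level was not tested.

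In diestrus no member differed between the lines by the edgeR test, of 29 members tested and beside 0.248% of all genes called. Unadjusted, 1 member was higher and 2 were lower at p under 0.05, beside 3.09% and 2.47% of all genes, and DESeq2 called 1 member, Rarg. The median log2 fold change of the members was -0.09, and that of all genes was 0.01. Ranges of the lines overlapped for each of the 29 members, while 1.59% of all genes did not overlap. All 5 luteal, all 4 macrophage, all 6 endothelial and all 4 erythroid markers tested were higher in FL1, and none was called. Of the GC markers tested 4 were higher and 4 lower. The part of these markers was not tested.

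The retinoic acid receptor Rarg had the lowest p in diestrus. It was at 7.33, 24.7, 13.1, 21.6 and 13.6 CPM in FL1 and at 25.3, 20.1, 56.4, 68.7 and 65.8 CPM in ctrl. A single ctrl mouse fell within the FL1 range, and the log2 fold change was -1.54 (SE 0.40, adjusted p = 0.233 by edgeR). Ppara, the fatty acid receptor that drives fatty acid oxidation, was at 10.4, 25.2, 15.7, 42.1 and 9.04 CPM in FL1 and at 4.46, 4.82, 2.27, 11.8 and 5.88 CPM in ctrl. Its log2 fold change was 1.83 (SE 0.55, adjusted p = 0.434 by edgeR). The oxysterol receptor Nr1h2 was lower in FL1 by a log2 difference of -0.68 (SE 0.30, adjusted p = 0.855), and the glucocorticoid receptor Nr3c1 had 26.8 ± 9.90 CPM in FL1 and 14.9 ± 7.49 CPM in ctrl (log2 difference 0.85, SE 0.42, adjusted p = 0.918).

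**Figure D3:**
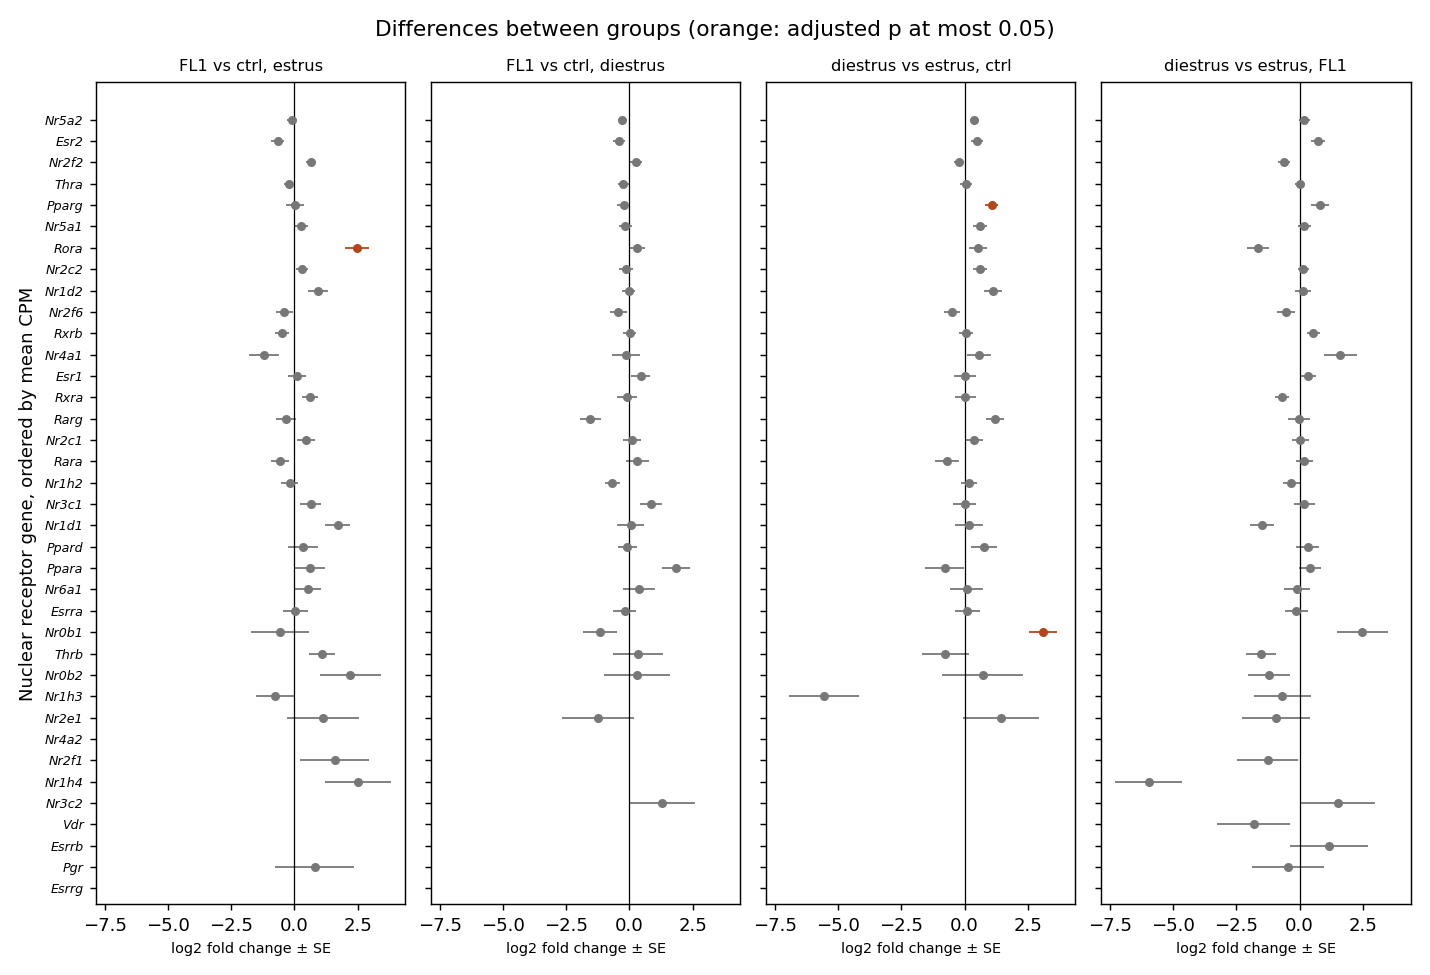
Log2 fold change with SE of each member tested in the comparisons of the lines within a stage and of the stages within a line, ordered by mean CPM. Orange points passed the adjusted threshold: Rora between the lines in estrus, Nr0b1 and Pparg between the stages in ctrl.

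From estrus to diestrus in ctrl, Nr0b1 and Pparg rose. Nr0b1, on chromosome X at 86191764 to 86195947 (ENSMUSG00000025056), also known as DAX1, has no usual DNA-binding domain and represses Nr5a1 and Nr5a2. It was at 7.29, 1.09, 2.52, 2.95 and 1.21 CPM in estrus and at 16.9, 28.4, 18.8, 28.9 and 37.3 CPM in diestrus. Every diestrus mouse was above every estrus mouse. The log2 fold change was 3.10 (SE 0.55, adjusted p = 0.00977 by edgeR), on 7 to 50 counts per mouse in estrus and 95 to 279 in diestrus. Without ctrl replicate 1 in estrus the log2 fold change was 3.73, and the call was lost with all 20 mice in a common fit (adjusted p = 0.0623).

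Pparg, on chromosome 6 at 115360951 to 115490399 (ENSMUSG00000000440), binds fatty acids and is known in GCs of growing follicles. Its levels were 74.8, 47.9, 113.6, 65.1 and 86.5 CPM in estrus and 96.9, 135.0, 226.7, 198.4 and 162.4 CPM in diestrus. Only the lowest diestrus mouse was below the highest estrus mouse. The log2 fold change of 1.07 (SE 0.26) lay just within the threshold, with adjusted p = 0.0486 by edgeR, and of 10 fits that left out a single mouse 2 kept the call.

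These were 2 of 29 members tested in ctrl, where 1.36% of 12850 genes were called. With an unadjusted p under 0.05 stood 7 members higher and 1 lower in diestrus, beside 5.91% and 5.85% of all genes, and the median log2 fold change was 0.18 over the members and 0.00 over all genes. The oxysterol receptor Nr1h3 was lower in diestrus, with 8.45, 6.20, 3.55, 16.2 and 3.12 CPM in estrus and 0.67 CPM in 1 diestrus mouse (5 counts) beside zeros in the other 4 (adjusted p = 0.0587 by edgeR). It was called without that diestrus mouse (adjusted p = 0.0408), without the filter on low counts, and by DESeq2 and limma-voom. Its groups did not overlap, as for 3.66% of all genes tested, but exons of Nr1h3 overlap those of a gene on the same strand. Next on the lower side was Nr2f6, with 49.1 ± 18.3 CPM in diestrus and 69.4 ± 26.6 CPM in estrus (log2 fold change -0.51, SE 0.31, adjusted p = 0.611 by edgeR). Nr5a2 was at 1584 ± 133.8 CPM in diestrus and 1205 ± 238.4 CPM in estrus, a log2 fold change of 0.39 (SE 0.17, adjusted p = 0.382 by edgeR).

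Stroma markers were lower in diestrus in ctrl, with 6 of 7 markers below and Col3a1 called, and their sum was 142.9 to 674.4 CPM in diestrus and 562.8 to 1251 CPM in estrus. The GC markers Fshr and Fst rose and Amhr2 fell, and the theca marker Cyp17a1 rose while the other 2 theca markers tested were lower. All 4 smooth muscle, all 5 endothelial and all 4 macrophage markers tested were lower in diestrus, and none of them was called. The part of these shifts in the levels of Nr0b1 and Pparg was not tested.

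From estrus to diestrus in FL1, no member passed the edgeR test among 35 tested, and 0.221% of all genes did. Without adjustment 4 members were higher and 6 lower at p under 0.05, beside 4.52% and 4.96% of all genes, while DESeq2 called 2 members, Nr1h4 and Rora, and limma-voom called Nr1h4. The median log2 fold change was 0.02 over the members and 0.01 over all genes. Nr1h4, the bile acid receptor, was at 8.16, 15.1, 2.65, 5.61 and 4.41 CPM in estrus and at 0.49 CPM (3 counts) in a single diestrus mouse, with no read in the other 4. The groups did not overlap, as for 2.42% of all genes, and the adjusted p was 0.0678 by edgeR. No fold is given, since the diestrus libraries held 3 counts in all.

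Rora was at 84.5, 41.4, 57.0, 41.4 and 109.9 CPM in FL1 in diestrus, against the estrus levels given above, a log2 fold change of -1.64 (SE 0.44, adjusted p = 0.137 by edgeR). Without FL1 replicate 2 in estrus it was -0.87 (SE 0.30, adjusted p = 0.395). On the higher side stood Esr2, with a log2 fold change of 0.73 (SE 0.27, adjusted p = 0.338), and Nr0b1, with 2.49 (SE 0.99, adjusted p = 0.396). Nr0b1 was at 6.08, 12.1, 0.16, 8.01 and 31.9 CPM in FL1 in diestrus and at 1.10, 1.498, 4.05, 0.14 and 3.39 CPM in estrus. A single diestrus mouse, replicate 3, was as low as the estrus mice, and the other 4 lay above all of them. Without FL1 replicate 5 in diestrus the log2 fold change was 1.67 (adjusted p = 0.858). All 5 luteal markers were lower in diestrus in FL1, with sums of 445.2 to 2126 CPM in diestrus and 1468 to 4154 CPM in estrus. So were 6 of 7 stroma markers and all 4 surface epithelium markers tested, while 7 of 9 GC markers were higher. None of these markers was called, and the part of their shifts in the levels of the members was not tested.

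Over both lines, with the line as a term, Nr0b1 and Pparg were again the members called, both higher in diestrus. This fit uses the mice of the comparisons within each line and is no separate evidence. Of 37 members tested 2 were called, beside 3.17% of 14938 genes, and 7 were higher and 5 lower at an unadjusted p under 0.05, beside 7.66% and 6.94% of all genes. Nr0b1 had a log2 fold change of 2.81 (SE 0.57, adjusted p = 0.00460 by edgeR), and Pparg had 0.95 (SE 0.23, adjusted p = 0.0184). In both cases the call held in all 26 alternative fits. Esr2 was at 201.8 CPM on average in diestrus and 133.2 CPM in estrus, a log2 fold change of 0.62 (SE 0.18, adjusted p = 0.0607 by edgeR), which DESeq2 and limma-voom called. Among the members lower in diestrus, Nr1h4 and Nr2f2 had the lowest p. Nr1h4 was at 0.21 CPM on average in diestrus, with reads in a single mouse of each line, and at 4.22 CPM in estrus (adjusted p = 0.167 by edgeR). Without ctrl replicate 3 in diestrus it was called (adjusted p = 0.0121), as it was by DESeq2 and limma-voom. Nr2f2 had a log2 fold change of -0.42 (SE 0.16, adjusted p = 0.186). Of the GC markers 4 of 9 rose over both lines (Fshr, Fst, Inhba and Cyp19a1), and of 3 theca markers tested Cyp17a1 rose and Star fell. The stroma marker Col3a1 fell, with 6 of 7 stroma markers lower, and all 5 smooth muscle and all 6 endothelial markers tested were lower without a call. The part of these markers was not tested.

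**Figure D4:**
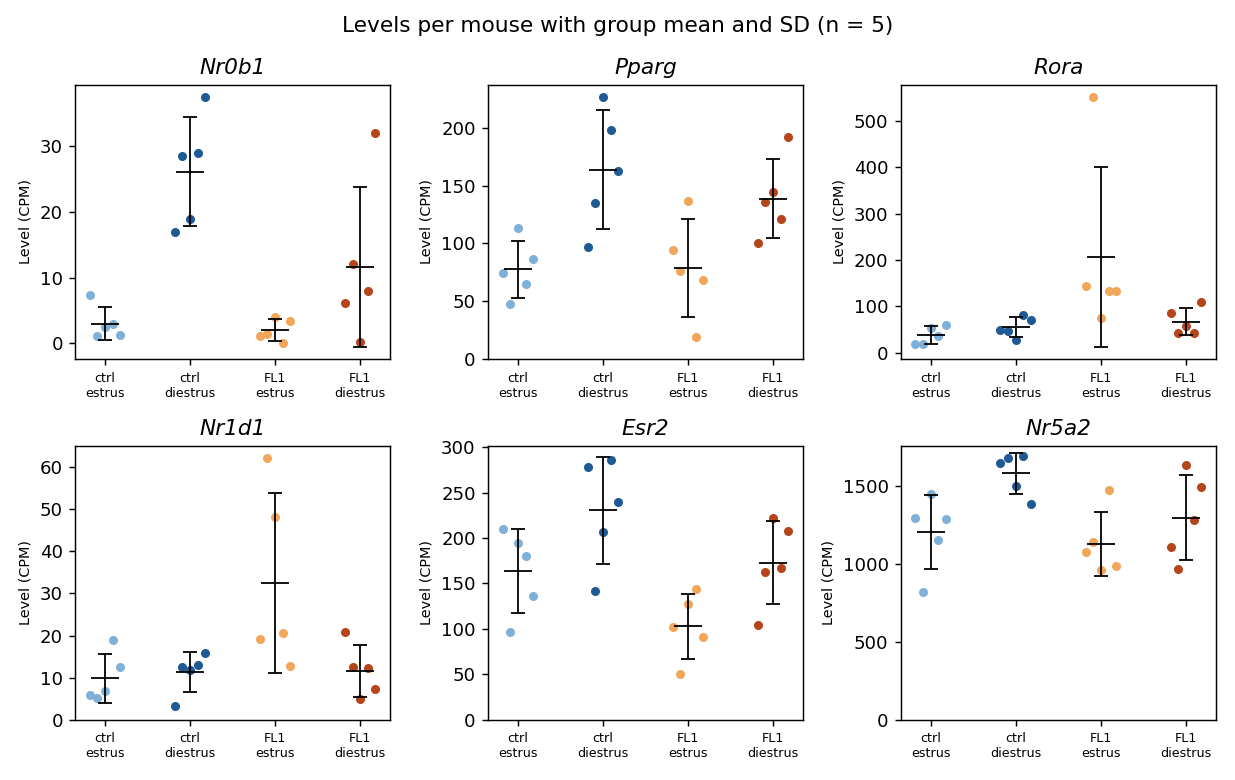
Level in CPM of Nr0b1, Pparg, Rora, Nr1d1, Esr2 and Nr5a2 in the 4 groups, with a point for each mouse and the group mean with SD (n = 5). Nr0b1 of ctrl is higher in every diestrus mouse than in any estrus mouse, and Rora of FL1 in estrus holds a mouse at 551.6 CPM.

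Over both stages, with the stage as a term, none of the 37 members differed between the lines by edgeR, beside 1.21% of all genes called. Before adjustment 5 members were higher and 2 lower in FL1 at p under 0.05, beside 6.06% and 4.98% of all genes, and DESeq2 called Rora alone. Rora had a log2 fold change of 1.39 (SE 0.39, adjusted p = 0.0813 by edgeR) and Nr2f2 of 0.46 (SE 0.16, adjusted p = 0.206). Rarg and Esr2 were on the lower side, with log2 fold changes of -0.94 (SE 0.30, adjusted p = 0.143) and -0.54 (SE 0.18, adjusted p = 0.183). Over both stages all 5 luteal markers were higher in FL1, of which Akr1c18, Prlr and Ptgfr were called, and all 7 macrophage markers were higher, of which Lyz2 was called. All 6 endothelial and all 4 erythroid markers tested were also higher without a call. The part of these markers was not tested.

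Whether a line difference depended on the stage was tested as an interaction, and edgeR called 0 of 37 members and 0% of 14938 genes. At p under 0.05 unadjusted, 1 member was positive and 3 were negative, beside 2.50% and 2.26% of all genes, and DESeq2 and limma-voom called none of the members. The line difference of Rora was smaller in diestrus by a log2 difference of -2.17 (SE 0.62, adjusted p = 0.933 by edgeR), or -1.39 without FL1 replicate 2 in estrus, and that of Nr1d1 by -1.68 (SE 0.72, adjusted p = 1.00). On the positive side stood Nr1h3 (adjusted p = 0.956), for which no fold is given since ctrl in diestrus held 5 counts, and Rara with 0.88 (SE 0.60, adjusted p = 1.00). Without the filter on low counts the interaction of Rora was called (adjusted p = 0.0439 by edgeR). Rora thus differed between the lines in estrus while a dependence on the stage was not shown in the main fit.

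Genes that act with the receptors were read from lists of known cofactors. Beside these and the lists below, 0.769% of all genes were called between the lines in estrus, 0.248% in diestrus and 1.21% over both stages. Between the stages 1.36% were called in ctrl, 0.221% in FL1 and 3.17% over both lines. Of 15 coactivators, Ncoa7, which binds estrogen receptors, was stronger expressed in FL1 in estrus (176.3 against 84.4 CPM, log2 fold change 1.06, SE 0.24, adjusted p = 0.0478 by edgeR), and Prmt1 fell from 220.6 CPM in estrus to 160.2 CPM in diestrus over both lines (adjusted p = 0.0445). Of 9 corepressors, Tbl1xr1 rose in diestrus in ctrl, from 34.9 to 82.3 CPM (adjusted p = 0.0285). Of 9 receptor chaperones, Fkbp5, which is also a glucocorticoid receptor target, fell from 541.9 to 352.4 CPM over both lines (adjusted p = 0.0359). None of the other cofactors and chaperones passed the test in any comparison.

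Of 15 clock genes none was called in any comparison by edgeR, the smallest p in estrus being that of Dbp, a target of the clock, with 38.0 CPM in FL1 and 14.1 CPM in ctrl (log2 fold change 1.43, SE 0.35, adjusted p = 0.0663). At an unadjusted p under 0.05 there was 1 clock gene between the lines in estrus and 1 over both stages, and 2 between the stages in FL1 and 2 over both lines. These were of 14 clock genes tested within a line or stage and 15 over both, and 5.47% of all genes were higher at that p in estrus and 6.06% over both stages. Between the stages 4.52% of all genes were higher and 4.96% lower in FL1, and 7.66% and 6.94% over both lines. Arntl, activated by Rora and repressed by Nr1d1, was at 22.6 CPM in FL1 and 6.76 CPM in ctrl in estrus (adjusted p = 0.566). The hour at which the mice were sampled is not given in the sources used here.

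Targets of the NR5A receptors moved in both directions, and the shares of all genes called are those given with the cofactors. Of 9 such genes Star and Fdx1, which supply cholesterol transport and electrons to steroid synthesis, were stronger expressed in FL1 in estrus, and Star also in diestrus, with 271.6 CPM in FL1 and 57.6 CPM in ctrl (log2 fold change 2.25, SE 0.36, adjusted p = 0.00899 by edgeR). Over both stages Star and the side-chain cleavage enzyme Cyp11a1 were higher in FL1. From estrus to diestrus in ctrl the Amh receptor Amhr2 and the lipoprotein receptor Scarb1 fell, and over both lines Star, Scarb1 and Cyp11a1 fell while the aromatase Cyp19a1 rose, from 42.1 to 124.5 CPM (adjusted p = 0.0218). Nr5a1 and Nr5a2 themselves were called in none of these comparisons. Star is also on the theca list, and all 5 luteal markers were higher in FL1 in estrus and in diestrus. The part of these cell types in the levels of the targets was not tested.

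Of 13 targets of the fatty acid receptors, of which 12 were tested, Angptl4 fell from 150.7 to 60.9 CPM between estrus and diestrus in ctrl (adjusted p = 0.00690), the stage at which Pparg rose. Over both lines Angptl4, Cpt1a and Acaa2 fell and Cd36, a fatty acid carrier, rose from 24.3 to 63.7 CPM (adjusted p = 0.0145), so of 12 genes tested 3 were called lower and 1 called higher, where 3.17% of all genes were called. Of 10 oxysterol receptor targets, Apoe was higher in FL1 over both stages (log2 fold change 0.92, SE 0.24, adjusted p = 0.0486), and the desaturase Scd1 fell from 28.1 to 9.63 CPM over both lines (adjusted p = 0.0243). Of 7 retinoic acid receptor targets 5 were tested, and Stra6 and Tgm2 fell over both lines, from 43.9 to 13.0 CPM and from 37.2 to 12.6 CPM.

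Among 10 glucocorticoid receptor targets the metallothionein Mt2, which also answers to zinc, was stronger expressed in FL1 in estrus (784.0 against 296.1 CPM, adjusted p = 0.00227), and fell to 136.6 CPM in FL1 in diestrus (adjusted p = 0.000319). The kinase Sgk1 was higher in FL1 in estrus and over both stages. Of 7 progesterone receptor targets 3 were tested, and over both lines the protease Ctsl rose and Adamts1 fell, by log2 fold changes of 0.70 (SE 0.17) and -1.49 (SE 0.36). Of 9 immediate early genes Fos and Egr1 rose in diestrus in ctrl, from 6.98 to 38.8 CPM and from 29.2 to 109.8 CPM, and Fos over both lines. Nr4a1, a member that is induced with these genes, had 61.9 ± 43.5 CPM in diestrus and 41.3 ± 26.2 CPM in estrus of ctrl and was not called.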

How the data were processed

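RNA of GCs was extracted with TRIzol per the labels, while the study's methods name a column kit, and QuantSeq 3′ libraries were sequenced. After trimming, STAR alignment to GRCm38 was used by the authors, who deposited raw counts per gene. Entries for unmapped, multimapped, ambiguous and unassigned reads were left out, and 48.9 to 58.4% of the reads were on genes. Symbols and exons came from GENCODE M21, and 55227 of 55487 identifiers matched.

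Each comparison was fitted over all genes with edgeR 4.0.16 (quasi-likelihood F test, TMM, a filter on low counts with a minimum count of 10) in R 4.3.3, p-values being adjusted by Benjamini-Hochberg and called at 0.05 or less. Alternatives were DESeq2 1.42.0, limma 3.58.1 with sample weights, other scaling, filter and dispersion settings, a replicate block and fits without single mice. The fit was tested on simulated data. Replicates were separate mice by the study's methods, and p-values measure the spread between them. Members with values in the text were those called, the 2 lowest p per direction and comparison, and the 10 highest; list genes were called genes, and a few others were named after their values were seen. The members and lists were chosen with earlier results of these data known. Markers of 10 cell types were read: theca, smooth muscle, endothelial, surface epithelium and erythroid lists, besides those in the report, held no called gene except Star and Cyp17a1 of theca, and the oocyte list held none.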

Additional observations from a re-analysis of the deposited data

Results flagged for a closer look

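In 80 groups of 5 mice, formed by 20 members and 4 groups, 8 held a mouse far from the others by Dixon's test, where chance gives about 1 in 20. Rora was at 551.6 CPM in FL1 replicate 2 in estrus, where the next mouse was at 144.9 CPM. Nr5a1 was at 163.4 CPM in FL1 replicate 1 in diestrus, next to 93.1 CPM. Nr2c2 was at 159.7 CPM in ctrl replicate 1 in diestrus, next to 85.3 CPM. Nr4a1 was at 145.8 CPM in FL1 replicate 2 in diestrus, next to 46.9 CPM. Nr1h3 stood out in ctrl replicate 3 in diestrus, at 0.67 CPM beside zeros, and in FL1 replicate 4 in diestrus, at 9.71 CPM. Nr1h4 stood out in replicate 3 of both diestrus groups, at 1.60 CPM in ctrl and 0.49 CPM in FL1, beside zeros. Where a single mouse has reads beside zeros, as for Nr1h4 and for Nr1h3 in ctrl, the flag is fixed in advance. The share of 1 in 20 does not apply to such groups. Of these only Rora in estrus bears on a difference called in the main fit, and its call without that mouse is given in the report. Without ctrl replicate 3 in diestrus, Nr1h3 between the stages in ctrl and Nr1h4 over both lines were called, as the report gives.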

How the results depend on the processing

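No log2 fold change of a named member changed direction under any alternative. The number of members called between the lines in estrus, 1 in the report, was 3 with DESeq2 (Rora, Nr1d1 and Vdr), 2 without the filter on low counts, 0 with robust estimation and 0 with the replicate block. In diestrus it was 1 with DESeq2 and 1 without the filter, in place of 0. Between the stages in ctrl it was 4 with DESeq2, 5 without the filter, 0 with all 20 mice in a common fit, and 1 to 2 when a single mouse was left out, Pparg being lost without ctrl replicates 1, 2, 4 or 5 in estrus or 2, 3, 4 or 5 in diestrus. In FL1 it was 2 with DESeq2, 4 without the filter and 1 with limma-voom, in place of 0. For the lines over both stages it was 1 with DESeq2, 1 without the filter, and 0 to 1 when a single mouse was left out (Rora was called without replicate 4 of ctrl or of FL1 in diestrus). For the stages over both lines it was 5 with DESeq2 and 5 with limma-voom, and 2 to 3 without single mice, and for the interaction 1 without the filter (Rora). The 10 highest members shared 8 to 10 genes with the order by other scaling or within a group.

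The replicate numbers did not pair the mice: the correlations of same-numbered mice were -0.12 to 0.12, with 1 of 20 pairs over 0.1. With the block Rora in estrus had adjusted p = 0.0841. Over all genes, 58 to 425 were called in estrus and 13 to 118 in diestrus between the lines, in place of 100 and 32. Without single mice they were 66 to 130 and 21 to 32. Between the stages 158 to 526 were called in ctrl and 26 to 299 in FL1, in place of 175 and 29, and 77 to 176 and 13 to 178 without single mice. Over both stages 136 to 438 were called for the line and over both lines 422 to 873 for the stage, in place of 181 and 473. With a single mouse left out they were 139 to 209 and 324 to 728. Members with few counts are limited by depth, and a missing call there does not show equal levels.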
